A study of Mus musculus with 8 samples.

Results

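The mitochondrial oxidative phosphorylation system was examined through the nuclear genes that encode its subunits, in whole mouse embryos at day E11.5. Members were gene probes whose RefSeq transcript belongs to a nuclear gene named Ndufa, Ndufb, Ndufc, Ndufs or Ndufv plus a number, Sdha to Sdhd, Uqcr or Cyc1, a Cox4i to Cox8 subunit, or Atp5, with the Ndufaf assembly factors left out. The rule found 74 genes, read by 77 probes, of 13971 named genes and 34967 gene probes on the array. By complex these were 30 genes of complex I, 4 of complex II, 8 of complex III, 17 of complex IV (with Ndufa4, once assigned to complex I) and 15 of complex V. Another 11 genes that meet the rule by name (Ndufa11, Ndufb1, Ndufb6, Ndufc1, Ndufs3, Ndufv2, Uqcr10, Cox6b2, Cox8c, Atp5g1 and Atp5l) had no matched probe and were not analysed here.

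The 8 embryos came from matings of mice with an allele that lowers expression of Ott1 (Rbm15), a Spen family protein that binds RNA. Homozygous embryos were numbers 2, 7 and 16, heterozygous embryos numbers 3, 10 and 15, and wild type embryos numbers 11 and 13. The sources used here give no strain, sex or litter. Each embryo was read on 1 one-colour CodeLink array, so bulk RNA of all tissues was measured, and fewer cells of a type cannot be told apart from less RNA per cell. No probe was matched to Rbm15, so the targeted gene itself was not analysed here.

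Oxidative phosphorylation is carried out by 5 protein complexes of the inner mitochondrial membrane. Complexes I and II pass electrons from NADH and succinate to ubiquinone, complex III hands them to cytochrome c, and complex IV gives them to oxygen. Complexes I, III and IV pump protons while they do so, and complex V, the ATP synthase, makes ATP as the protons flow back. In the embryo the demand on this system grows as heart, muscle, liver and nervous tissue differentiate, and some complex IV subunits exist as alternative isoforms used in muscle, in other tissues or under low oxygen.

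Transcription of these nuclear genes is known to be driven in part by nuclear respiratory factor 1, by the ETS factor GABP, by YY1 and by estrogen-related receptors. RefSeq promoter windows, 250 bases before and 50 bases after each gene's start on GRCm38.p6, were found for 59 of the 74 genes. The windows below belong to the members with an unadjusted p under 0.05 between homozygous and the other embryos. Cox4i2 is such a member without a window in the table. None of these members passed after adjustment, and a link between the motifs and the differences was not tested. Capitals mark a match to GCATGCGC (nuclear respiratory factor 1), CCGGAAG (ETS, GABP), AAGATGGCG (YY1) or TGACCTTG (estrogen-related receptor) on either strand. The Sdhb window is chr4:140961021-140961320 on the plus strand, that of Cox5b chr1:36691237-36691536 on the plus strand, that of Atp5k chr5:108434350-108434649 on the minus strand and that of Ndufv3 chr17:31519865-31520164 on the plus strand.
Sdhb: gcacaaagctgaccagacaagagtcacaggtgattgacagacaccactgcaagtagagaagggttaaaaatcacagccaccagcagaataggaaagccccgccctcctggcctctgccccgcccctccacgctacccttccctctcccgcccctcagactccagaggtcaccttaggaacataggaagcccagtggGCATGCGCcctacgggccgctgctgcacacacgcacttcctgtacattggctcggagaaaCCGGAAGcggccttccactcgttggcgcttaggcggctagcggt
Cox5b: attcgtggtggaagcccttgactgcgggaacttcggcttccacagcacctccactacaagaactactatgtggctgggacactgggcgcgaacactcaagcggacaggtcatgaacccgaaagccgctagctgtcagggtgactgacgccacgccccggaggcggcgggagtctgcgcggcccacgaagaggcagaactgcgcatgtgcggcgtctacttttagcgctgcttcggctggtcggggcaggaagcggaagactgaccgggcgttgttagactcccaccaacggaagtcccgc
Atp5k: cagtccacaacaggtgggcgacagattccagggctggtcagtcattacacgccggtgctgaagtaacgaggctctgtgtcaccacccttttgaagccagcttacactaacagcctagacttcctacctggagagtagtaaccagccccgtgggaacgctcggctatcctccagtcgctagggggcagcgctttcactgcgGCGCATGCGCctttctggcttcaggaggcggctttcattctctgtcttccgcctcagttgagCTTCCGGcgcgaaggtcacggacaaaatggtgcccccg
Ndufv3: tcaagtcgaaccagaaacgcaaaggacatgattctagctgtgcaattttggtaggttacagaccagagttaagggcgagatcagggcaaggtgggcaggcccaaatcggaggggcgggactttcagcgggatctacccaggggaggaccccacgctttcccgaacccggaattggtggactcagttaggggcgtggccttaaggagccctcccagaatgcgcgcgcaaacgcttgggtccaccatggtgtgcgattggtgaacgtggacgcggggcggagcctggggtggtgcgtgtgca

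The Sdhb window held 1 match to the nuclear respiratory factor 1 motif, which began 54 bases before the start, and 1 ETS match from base 7 of the transcript. The Atp5k window held 2 overlapping matches to the nuclear respiratory factor 1 motif on opposite strands, the first of which began 50 bases before the start, and 1 ETS match. The Cox5b and Ndufv3 windows held no match to these 4 sets of letters. Over the subunit genes with a window, the nuclear respiratory factor 1 motif occurred in 8 of 59 (13.6%), against 3.05% of all genes in the table. The ETS motif occurred in 14 (23.7%, against 9.93%), the YY1 motif in 6 (10.2%, against 1.64%) and the estrogen-related receptor motif in 3 (5.08%, against 1.76%). The core of the hypoxia response element, ACGTG, occurred in 15 of the 59 subunit genes (25.4%, against 21.8%). No subunit window held overlapping matches of different motifs.

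The subunits were well measured. Of the 74 genes 70 were tested, and 69 were above background on every array on which they were measured, the exception among those tested being Ndufs5. The spots of Ndufb5 and Cox8b were missing on all arrays, Uqcrq was above background on no array, and Cox7b2, the testis isoform of subunit VIIb, was above it on 2 of 8. Ndufv1 and Cox7c were missing in homozygous embryo 2 and Atp5g2 in homozygous embryo 16, so their homozygous values rest on 2 embryos. Before normalization the median intensity of an array was 61.4, 61.5 and 87.9 in homozygous embryos 2, 7 and 16, against 48.3 to 57.6 in the others, so array brightness and homozygosity cannot be told apart. Among the markers of tissues that a whole embryo holds, 10 neuron, 10 cardiomyocyte, 8 liver and 8 erythroid genes were above background on all 8 arrays. Of the defining trophoblast genes Tpbpa was above it on 1 array, and the spots of Prl3d1 were missing on all.

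Homozygous embryos were first set against the 5 others, which asks whether a low level of Rbm15 goes with a different supply of respiratory chain transcripts. No subunit gene passed in this comparison, and the levels of most were close between the genotypes. Of 70 tested genes 0 had a limma adjusted p under 0.05, and the background was 25 of 23388 probes, or 0.107%. At an unadjusted p under 0.05 there were 5 subunit genes (7.14%), against 20.0% of all probes. Without embryo 11 there were 3 (4.29%, against 13.9%). Cox4i2 and Ndufv3 were the 2 with a positive difference (2 of 70, against 6.63% of all probes) and Sdhb, Cox5b and Atp5k the 3 with a negative one (3 of 70, against 13.4%), and the sign of Ndufv3 turned with median scaling and in the authors' deposited value table. The homozygous values did not overlap those of the others in 6 genes (8.57%), against 14.6% of all probes. The 95% interval of the log2 difference lay within 0.5 of 0 for 58 of the 70 genes (82.9%), against 46.5% of all probes.

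The median log2 difference over the 70 genes was -0.06, equal at this rounding to the median of all probes (-0.06), and the quartiles of the genes were -0.13 and -0.01. A negative sign was held by 54 genes (77.1%), against 60.2% of all probes. The median was -0.04 for complex I, -0.11 for complex II, -0.07 for complex III, -0.04 for complex IV and -0.09 for complex V. The 5 complexes thus lay close to each other and to the median of all probes.

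**Figure D1:**
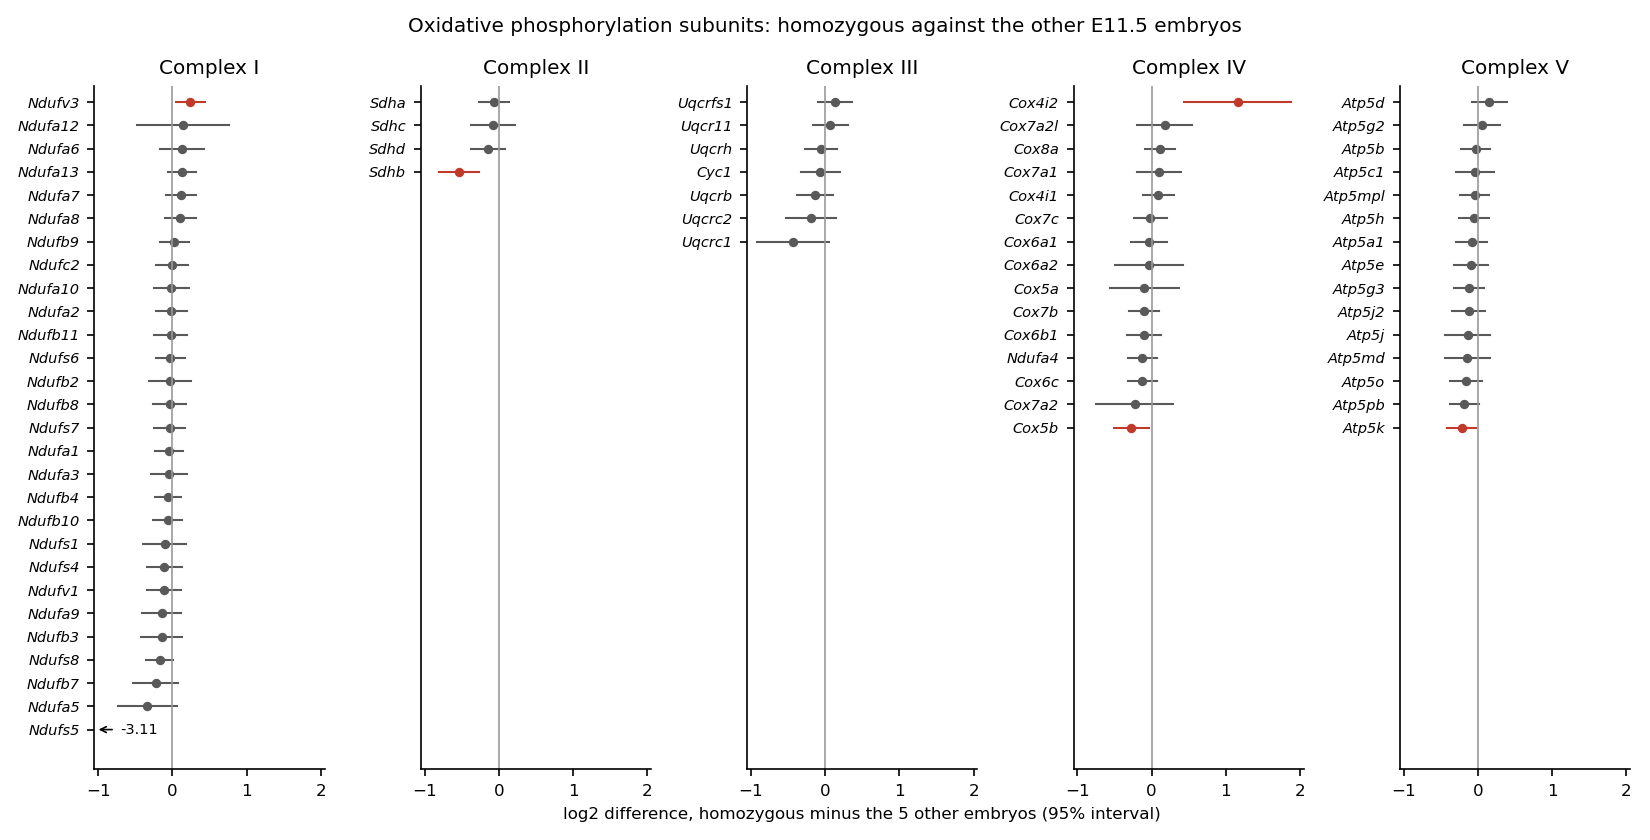
Log2 difference of 69 of the 70 tested subunit genes, homozygous minus the 5 other embryos, with its 95% interval, in 1 panel per complex. Red marks the 5 genes with an unadjusted p under 0.05, and Ndufs5, at -3.11, lies off the axis at the arrow. Most genes sit close to 0, Cox4i2 (1.16) stands to the right and Sdhb (-0.53) to the left.

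The size of the common shift depended on the scaling. With each array scaled to a common median, here called median scaling, the median of the 70 genes was -0.43, with all probes at -0.22. A negative sign was held by 69 genes (98.6%) in this setting, against 76.2% of all probes. In the deposited value table the median was -0.46, with all probes at -0.25, and under cyclic loess -0.05, with all probes at -0.01. An unadjusted p under 0.05 was then held by 41 genes (58.6%, against 23.5% of all probes) with median scaling and by 44 (62.9%, against 25.6%) in the deposited table. None of the 70 passed in either, and the lowest adjusted p was 0.102 and 0.0901.

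This shift was shared by other bright probes. Between their quartiles the subunit genes had mean log2 levels of 11.8 to 13.3, and 526 other named probes lay in that range. Their median difference was -0.40 with median scaling and -0.43 from the deposited values, and 50.2% and 55.3% of them had an unadjusted p under 0.05. A negative sign was held by 97.9% and 98.7% of them in these 2 settings. With quantile normalization their median was -0.02, 9.70% had such a p and 58.0% a negative sign. The subunit genes lay 0.04 below these probes with quantile normalization and 0.03 below them in the other 2 settings.

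**Figure D2:**
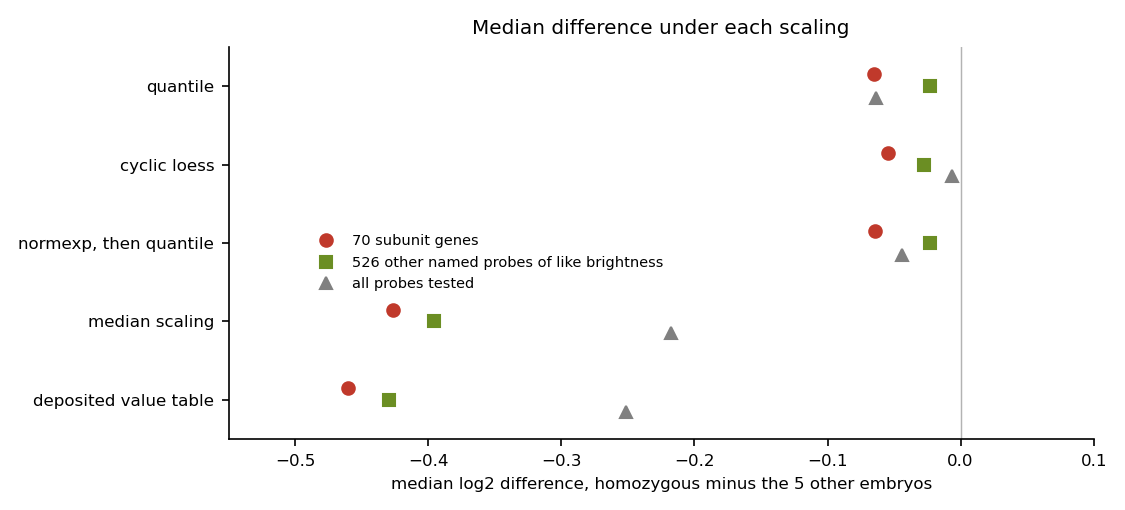
Median log2 difference, homozygous minus the 5 other embryos, of the 70 subunit genes (circles), of 526 other named probes between the quartiles of the subunits' levels (squares) and of all probes tested (triangles), under 5 scalings. Circles and squares lie together in every setting, near 0 in the top 3 and between -0.40 and -0.46 in the bottom 2.

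Homozygous embryo 16 stood apart from the other embryos in the deposited values. The mean deviation of 66 subunit genes, measured above background on all 8 arrays, from each gene's own mean was -0.12, -0.05 and -0.64 in homozygous embryos 2, 7 and 16. It was 0.03, 0.37 and 0.07 in heterozygous embryos 3, 10 and 15 and 0.26 and 0.08 in wild type embryos 11 and 13. Embryo 16, whose array was the brightest, lay lowest, and embryo 10, whose array had the lowest median intensity, lay highest. The median deviation of all probes in the same table was -0.50 in embryo 16 and 0.16 in embryo 10.

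With quantile normalization the same mean deviation was -0.03, -0.02 and -0.05 in homozygous embryos 2, 7 and 16. It was -0.04, 0.03 and 0.01 in heterozygous embryos 3, 10 and 15 and 0.07 and 0.02 in wild type embryos 11 and 13. The 3 homozygous embryos lay below both wild type embryos, and the heterozygous range overlapped both of these genotypes. Embryo 16 held the lowest value in 19 of the 66 genes, where it held the lowest value in 38.4% of all probes. Over all gene probes embryo 16 correlated at 0.933 to 0.938 with the other embryos, against 0.959 to 0.976 among those. Its array weight was 0.219, against 0.707 to 1.62 for the others. Its array had 1634 gene probes left out, against 206 to 616. The median SD within genotypes was 0.117 over the 66 genes, against 0.183 over all probes above background on 8 arrays.

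**Figure D3:**
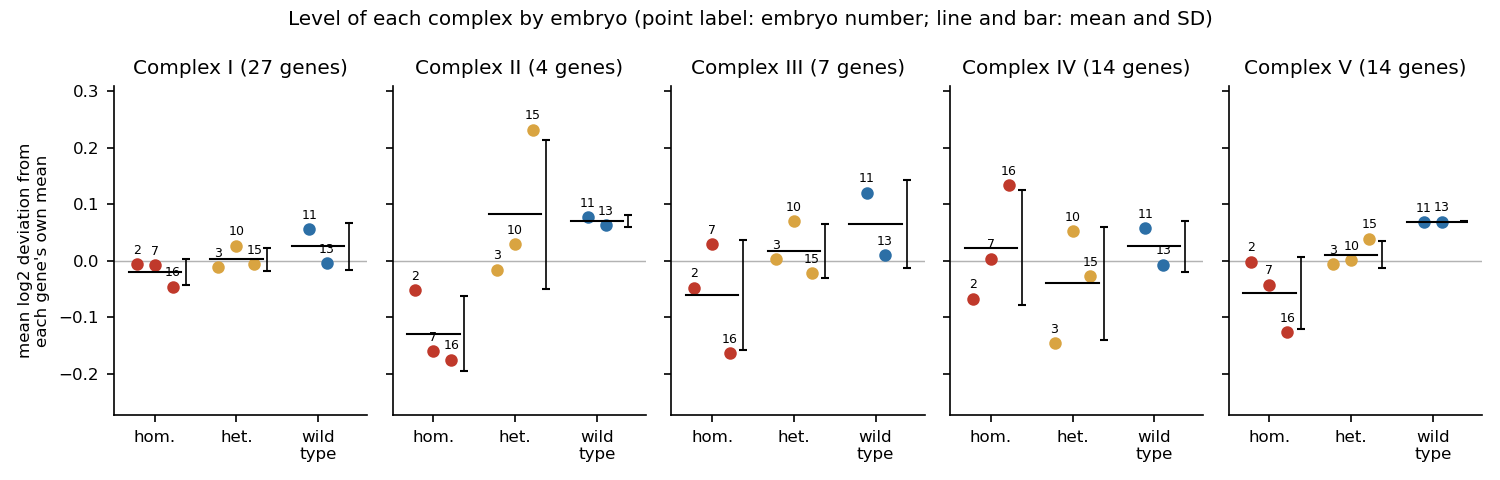
Mean log2 deviation of each complex from its genes' own means in each embryo, with the mean and SD of each genotype. Complex II is the 1 complex in which the homozygous embryos (-0.17 to -0.05) lie below all heterozygous and wild type embryos, while in complexes I, III, IV and V homozygous and heterozygous embryos overlap. Both wild type embryos lie above all others in complex V (0.07 each), and above the homozygous ones in complex I by a narrow margin.

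Complex II, succinate dehydrogenase, also serves the citric acid cycle, and all 4 of its genes are nuclear. Its mean deviation was -0.05, -0.16 and -0.17 in homozygous embryos 2, 7 and 16, against -0.02, 0.03 and 0.23 in heterozygous embryos 3, 10 and 15 and 0.08 and 0.06 in wild type embryos 11 and 13. The homozygous values lay below all others, a separation that rested on Sdhb. Over Sdha, Sdhc and Sdhd alone, a choice made after the data were seen, it was -0.06, -0.06 and -0.07 in the homozygous embryos, against -0.09 in heterozygous embryo 3, which lay lowest.

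Sdhb encodes the iron-sulfur subunit that carries electrons through the enzyme. Its log2 level was 12.03, 11.62 and 11.57 in homozygous embryos 2, 7 and 16, against 12.28, 12.18 and 12.33 in heterozygous embryos 3, 10 and 15 and 12.26 and 12.30 in wild type embryos 11 and 13. The 3 homozygous values lay below the 5 others, which stayed within a narrow range, and embryos 7 and 16 lay lower than embryo 2. The log2 difference was -0.53 (SE 0.12, 1.44-fold lower), and it did not pass over all probes (limma adjusted p = 0.121). It ranged from -0.94 to -0.45 over 18 alternatives, with adjusted p-values from 0.0664 to 0.291. Against wild type alone the difference was -0.54 (SE 0.16), against heterozygous embryos -0.52 (SE 0.14), and between heterozygous and wild type embryos it was -0.02 (SE 0.16).

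The 3 other complex II genes gave smaller differences. The flavoprotein gene Sdha, which holds the succinate site, had a difference of -0.07 (SE 0.09). The membrane anchor genes Sdhc and Sdhd, which bind ubiquinone, had differences of -0.08 (SE 0.13) and -0.14 (SE 0.10). In all 3 the homozygous values overlapped those of the others. Sdhc was highest in heterozygous embryo 15, at 12.06, against 11.51 to 11.77 in the 7 other embryos, and its difference was -0.0015 without embryo 15.

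Cytochrome c oxidase, complex IV, held the largest difference among the genes above background in every embryo. Cox4i2 encodes the isoform of subunit IV that is known to be induced by low oxygen in mammalian cells and is prominent in lung. Its log2 level was 7.57, 7.73 and 8.98 in homozygous embryos 2, 7 and 16, against 7.01, 7.35 and 6.97 in heterozygous embryos 3, 10 and 15 and 6.70 and 6.62 in wild type embryos 11 and 13. All 3 homozygous embryos lay above all others, embryo 16 by far the most, and both wild type embryos lay below all heterozygous ones. The log2 difference was 1.16 (SE 0.32, 2.23-fold), and it did not pass over all probes (limma adjusted p = 0.147). Without embryo 16 it was 0.72, and over 18 alternatives it ranged from 0.72 to 1.42 with adjusted p-values from 0.0898 to 0.317. Against wild type the difference was 1.43 (SE 0.39, adjusted p = 0.222), against heterozygous embryos 0.98 (SE 0.35, adjusted p = 0.400), and between heterozygous and wild type embryos it was 0.45 (SE 0.39).

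Cox4i1, the isoform of subunit IV used in most tissues, had log2 levels of 13.58, 13.63 and 13.53 in homozygous embryos 2, 7 and 16, against 13.46, 13.33 and 13.49 in heterozygous embryos 3, 10 and 15 and 13.55 and 13.62 in wild type embryos 11 and 13. Homozygous and wild type values overlapped, and the heterozygous values lay below both. Its difference of 0.09 (SE 0.09, adjusted p = 0.595) was -0.29 with median scaling and -0.32 in the deposited table.

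**Figure D4:**
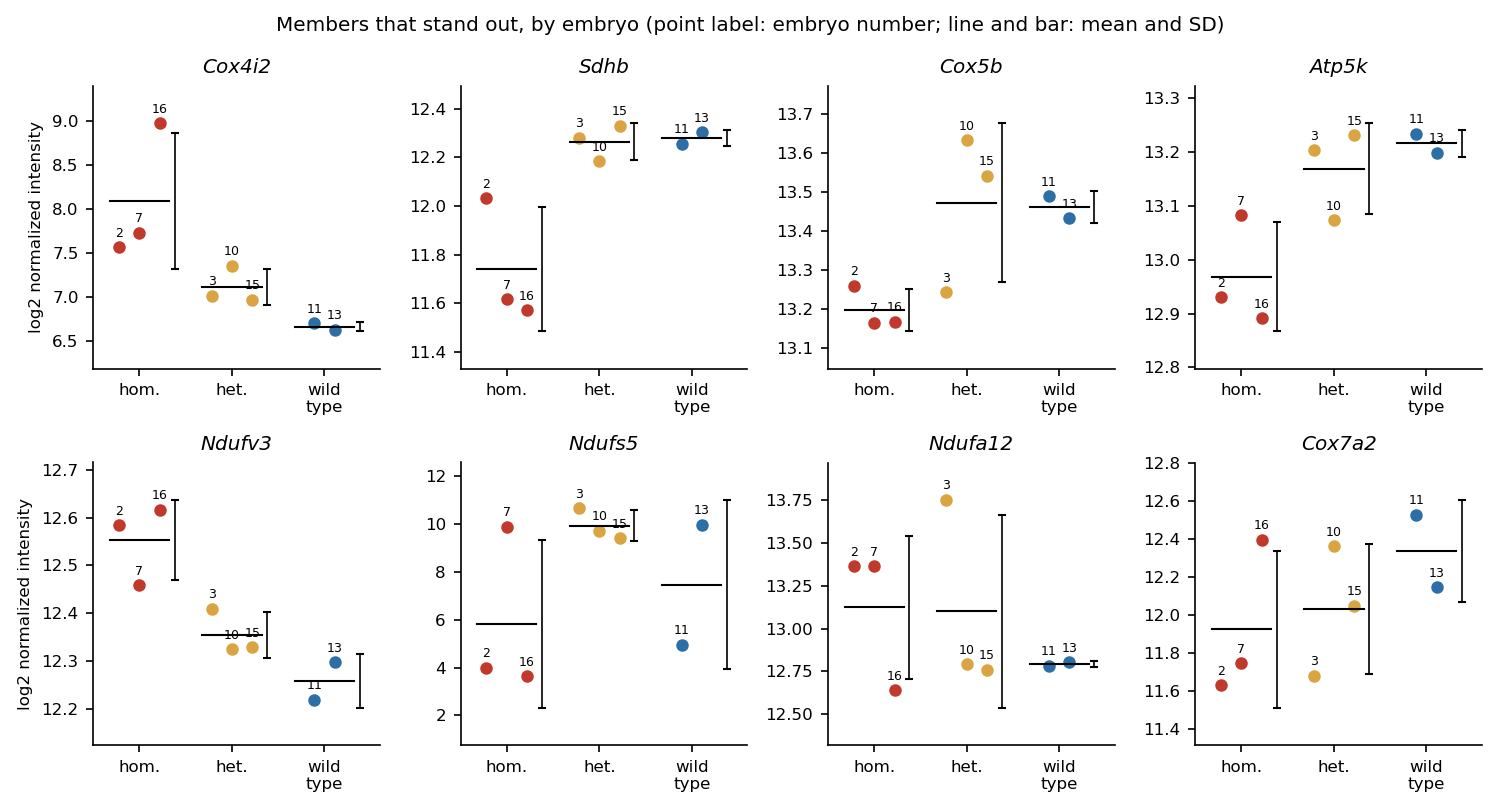
Log2 normalized intensity of 8 subunit genes in each embryo, with the mean and SD of each genotype; the vertical axes differ between panels. The homozygous embryos lie above all others for Cox4i2 and Ndufv3 and below all others for Sdhb. The sign of Ndufv3 turned with median scaling and in the deposited values. In the 5 other panels homozygous values overlap those of the other embryos, though for Cox5b and Atp5k they lie below both wild type embryos.

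Other complex IV subunits with alternative forms gave no such separation. Cox6a1, the form of subunit VIa in most tissues, had a difference of -0.03 (SE 0.11), which turned sign under cyclic loess and without embryo 16. Its muscle counterpart Cox6a2 had -0.04 (SE 0.20), which turned sign without embryo 7, 10 or 11. The muscle form of subunit VIIa, Cox7a1, had 0.10 (SE 0.13), and the related Cox7a2l, which helps join complexes III and IV, had 0.18 (SE 0.16). Cox8a, the widely used form of subunit VIII, had 0.12 (SE 0.09). These last 3 positive signs turned with median scaling and in the deposited values, and that of Cox7a2l also without embryo 16. Cox6b1 and Cox7b, whose paralogs Cox6b2 and Cox7b2 are testis forms, had -0.11 (SE 0.10) and -0.10 (SE 0.09).

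The 2 muscle forms overlapped between all genotypes. Cox6a2 was at 7.55, 7.38 and 7.70 in homozygous embryos 2, 7 and 16, 7.02, 7.78 and 7.64 in heterozygous embryos 3, 10 and 15, and 7.97 and 7.48 in wild type embryos 11 and 13. Cox7a1 was at 7.29, 7.25 and 7.49 in the homozygous, 6.95, 7.51 and 7.21 in the heterozygous and 7.29 and 7.25 in the wild type embryos. Both were lowest in heterozygous embryo 3. Of 13 cardiomyocyte markers on the array, 10 were above background in all embryos and Myh6 in none. The mean log2 level of those 10 was 10.29 to 10.40 in homozygous, 9.82 to 10.48 in heterozygous and 10.04 to 10.27 in wild type embryos, and it too was lowest in embryo 3. The part of heart tissue in the values of Cox6a2 and Cox7a1 was not tested.

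**Figure D5:**
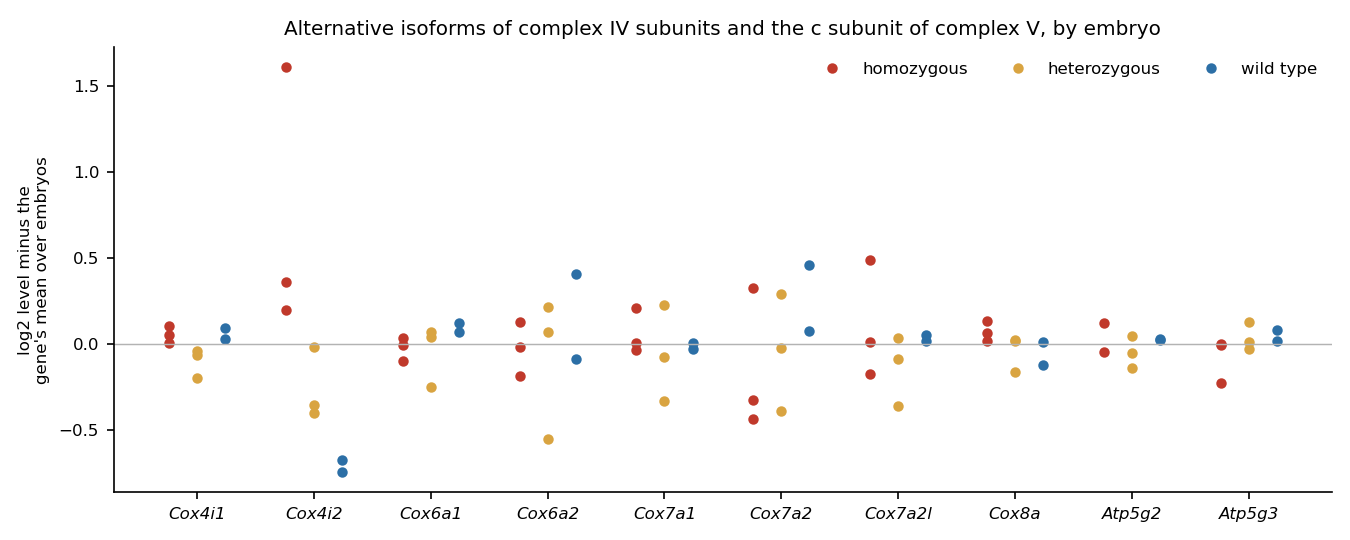
Log2 level of each gene minus its own mean over the embryos, by genotype, for alternative isoforms of complex IV subunits and the c subunit of complex V. Only Cox4i2, of the 10 genes shown, has all 3 homozygous embryos above the 5 others, and embryo 16 is its highest point.

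Among the remaining complex IV genes Cox5b, a subunit on the matrix side, had the most negative difference. Its level was 13.26, 13.16 and 13.17 in homozygous embryos 2, 7 and 16, against 13.24, 13.63 and 13.54 in heterozygous embryos 3, 10 and 15 and 13.49 and 13.43 in wild type embryos 11 and 13. Heterozygous embryo 3 lay among the homozygous embryos, so the groups overlapped. The log2 difference was -0.27 (SE 0.10, limma adjusted p = 0.21). Ndufa4, a complex IV subunit despite its name, had -0.12 (SE 0.08), and Cox6c had -0.13 (SE 0.09).

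Cox7a2, the form of subunit VIIa in most tissues, varied more than most members. It was at 11.63, 11.75 and 12.40 in homozygous embryos 2, 7 and 16, 11.68, 12.36 and 12.05 in heterozygous embryos 3, 10 and 15, and 12.53 and 12.14 in wild type embryos 11 and 13. Embryos 2, 3 and 7, of both genotypes with the allele, lay below the 5 others. The homozygous difference was -0.23 (SE 0.23, adjusted p = 0.589). It was -0.08 without embryo 2, -0.14 without embryo 7 or 11 and -0.46 without embryo 16.

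Complex I, the NADH dehydrogenase, has the most subunits, and its 29 tested genes had a median of -0.04. Ndufv3, an accessory subunit of the NADH-oxidizing module, was at 12.58, 12.46 and 12.62 in homozygous embryos 2, 7 and 16, against 12.41, 12.32 and 12.33 in heterozygous embryos 3, 10 and 15 and 12.22 and 12.30 in wild type embryos 11 and 13. The homozygous values lay above the heterozygous ones, and these above the wild type ones. Its difference was 0.24 (SE 0.09, limma adjusted p = 0.195), and it ranged from -0.18 in the deposited table to 0.29, and with median scaling its sign turned too. All 7 complex I genes with a positive difference, among them Ndufv3, Ndufa12 and Ndufa6, were negative in both of these settings.

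Core subunits of complex I gave small differences. Ndufs1, Ndufs7, Ndufs8 and Ndufv1, which bind the flavin and iron-sulfur clusters or form the quinone site, had differences of -0.10, -0.04, -0.17 and -0.11, with SEs between 0.08 and 0.13. The homozygous values lay below all others for Ndufs8 and for Ndufv1, which was measured in 2 homozygous embryos, and neither passed (adjusted p = 0.276 and 0.531). The accessory subunit genes with the most negative differences beside Ndufs5 were Ndufa5 (-0.34, SE 0.17) and Ndufb7 (-0.22, SE 0.13). Both were lowest in homozygous embryo 16, at 8.58 and 8.79, and without it the differences were -0.14 and -0.09. Ndufa6, an accessory subunit of the LYR family, had 0.13 (SE 0.13).

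Ndufs5 and Ndufa12, both accessory subunit genes, had values in separate ranges within a genotype. Ndufs5 was at 4.0, 9.89 and 3.64 in homozygous embryos 2, 7 and 16, 10.67, 9.73 and 9.41 in heterozygous embryos 3, 10 and 15, and 4.96 and 9.98 in wild type embryos 11 and 13. It was not above background in embryos 2 and 16. A low value thus occurred in 2 homozygous and 1 wild type embryo, and the difference of -3.11 (SE 1.68) had an adjusted p of 0.324. Over 17 alternatives it ranged from -5.135 to -1.57, the latter with array weights. Without embryo 7 no homozygous value is above background, so the difference there rests on values below it.

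Ndufa12 was at 13.37, 13.37 and 12.64 in homozygous embryos 2, 7 and 16, 13.75, 12.79 and 12.76 in heterozygous embryos 3, 10 and 15, and 12.78 and 12.81 in wild type embryos 11 and 13. Embryos 2, 3 and 7, the ones low in Cox7a2, were high, and the 5 others lay between 12.64 and 12.81. The homozygous difference was 0.15 (SE 0.27, adjusted p = 0.784), and it was 0.02 without embryo 2 or 7 and 0.39 without embryo 16.

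Complex III, the cytochrome bc1 complex, had 7 tested genes and no member with an unadjusted p under 0.05. Uqcrc1, a core protein on the matrix side, was at 7.61, 7.52 and 6.61 in homozygous embryos 2, 7 and 16, against 7.65, 7.78 and 7.53 in heterozygous embryos 3, 10 and 15 and 7.69 and 7.72 in wild type embryos 11 and 13. Embryo 16 alone lay low, and the difference of -0.43 (SE 0.21, adjusted p = 0.293) was -0.11 without it. The second core protein gene Uqcrc2 had -0.19 (SE 0.15), which was -0.05 without embryo 2 and -0.36 without embryo 16, and Uqcrb, which lines the ubiquinone site, had -0.14 (SE 0.11). The Rieske iron-sulfur protein gene Uqcrfs1 had 0.13 (SE 0.10) and the small subunit gene Uqcr11 had 0.07 (SE 0.10), and both positive signs turned with median scaling and in the deposited values. Uqcrh, the hinge protein gene, was read by 2 probes with differences of -0.06 and 0.02.

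Complex V had 15 tested genes, and the 95% interval of each lay within 0.5 of 0. Atp5k, the e subunit that supports pairing of synthases in the membrane, was at 12.93, 13.08 and 12.89 in homozygous embryos 2, 7 and 16, against 13.20, 13.07 and 13.23 in heterozygous embryos 3, 10 and 15 and 13.23 and 13.20 in wild type embryos 11 and 13. Homozygous embryo 7 and heterozygous embryo 10 overlapped by a small margin. Its difference was -0.22 (SE 0.09, limma adjusted p = 0.22).

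The peripheral stalk genes Atp5pb and Atp5o, which hold the catalytic head in place, had differences of -0.18 (SE 0.09) and -0.16 (SE 0.10). Atp5pb was at 13.12, 13.08 and 13.06 in homozygous embryos 2, 7 and 16, against 13.16 to 13.38 in the 5 others, with no overlap (adjusted p = 0.273). The catalytic subunit gene Atp5b had -0.03 (SE 0.09). Atp5d, a part of the rotating stalk, had 0.15 (SE 0.10) and its sign turned with median scaling and in the deposited values. The c subunit, whose ring turns with the proton flow, is made from several genes, of which Atp5g2 had 0.06 (SE 0.11) and Atp5g3 had -0.12 (SE 0.09). The sign of Atp5g2, measured in 2 homozygous embryos, turned in the same 2 settings and without embryo 7.

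Against wild type alone, homozygous embryos again had no subunit gene past the threshold (0 of 70 by limma, with 8 of 23387 probes, or 0.0342%, called). The median difference was -0.10, with all probes at -0.07. At an unadjusted p under 0.05 there were 5 genes (7.14%, against 15.3% of all probes), namely Cox4i2 and Ndufv3 with a positive and Sdhb, Ndufb3 and Ndufb7 with a negative difference. The accessory subunit genes Ndufb3 and Ndufb7 had differences of -0.32 (SE 0.13) and -0.38 (SE 0.15). Ndufb3 was at 9.14, 9.30 and 8.99 in homozygous embryos 2, 7 and 16, against 9.50 and 9.41 in wild type embryos 11 and 13. With median scaling and in the deposited values there were 18 such genes in each (25.7%), against 15.4% and 16.2% of all probes. Of the 526 other probes between the quartiles of the subunits' levels, 14.4% and 17.5% had such a p. With quantile normalization the median difference was -0.06 without embryo 11 and -0.11 without embryo 13, with all probes at -0.07 and -0.09. Each of these leaves 1 wild type embryo. An unadjusted p under 0.05 was held by 3 genes without embryo 2 (4.225%, against 15.03% of all probes). It was also held by 3 without embryo 3 or 15 (4.286%, against 13.53% and 13.95%). Without embryo 7 there were 8 (11.43%, against 17.97%), so the share of subunit genes stayed below that of all probes. Groups did not overlap in 30 of 70 genes (42.9%, against 39.5% of all probes). In 7 of them the homozygous values were higher (14.3% of all probes) and in 23 lower (25.2% of all probes).

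Heterozygous and wild type embryos, which asks what 1 copy of the allele does, gave 0 calls among the 70 genes and 0 among 23387 probes (0.0%) by limma. At an unadjusted p under 0.05 there were 0 subunit genes, against 2.3% of all probes. The median difference was -0.04, with all probes at -0.01, and groups did not overlap in 12 genes (17.1%, against 19.7%). This median was -0.02 without embryo 3. Without embryo 16 there were 3 genes (4.29%, against 4.53% of all probes) with an unadjusted p under 0.05. Ndufb3 and Ndufb7 were again on the negative side, with -0.28 (SE 0.13) and -0.27 (SE 0.15). Both comparisons share the 2 wild type embryos.

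Homozygous against heterozygous embryos gave 0 calls among the 70 genes by limma, with 5 of 23388 probes, or 0.0214%, called. The median difference was -0.04, with all probes at -0.06. Sdhb and Cox4i2 were the 2 genes with an unadjusted p under 0.05 (2.86%, against 11.6% of all probes), and groups did not overlap in 8 genes (11.4%, against 19.2%). With median scaling and in the deposited values 28 and 29 genes (40% and 41.4%) had such a p, against 12.0% and 13.0% of all probes. Of the 526 other probes between the quartiles of the subunits' levels, 31.0% and 34.98% had such a p. With quantile normalization the number of such subunit genes was 1 without embryo 15 (1.43%, against 6.98% of all probes) and 3 without embryo 7 (4.29%, against 15.5%). It was 4 without embryo 16 (5.71%, against 10.4%). The median was -0.06 without embryo 3 and -0.02 without embryo 16. This comparison shares the homozygous embryos with the comparisons above.

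Genes that build, feed or regulate the respiratory chain gave no call in any list when homozygous embryos were set against the others. Of 29 assembly factor genes tested, 1 had an unadjusted p under 0.05 with a positive and 6 with a negative difference, and the median was -0.08. Over all probes 6.63% had such a p with a positive and 13.4% with a negative difference. The complex III factors Ttc19 and Lyrm7 had differences of -0.39 (SE 0.08, limma adjusted p = 0.11) and -0.50 (SE 0.12, adjusted p = 0.135), the second without heterozygous embryo 3, where its spot was missing. Of 70 mitochondrial ribosome genes there were 1 and 8, with a median of -0.03, among them Mrpl35 at -0.47 (SE 0.09, adjusted p = 0.11). Of 18 genes of the citric acid cycle and pyruvate dehydrogenase there were 1 and 1, with a median of -0.14, among them the pyruvate dehydrogenase gene Pdhb at -0.29 (SE 0.09, adjusted p = 0.178).

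Cycs encodes cytochrome c, the carrier between complexes III and IV. It was at 12.35, 12.25 and 12.23 in homozygous embryos 2, 7 and 16, against 12.74, 12.96 and 12.82 in heterozygous embryos 3, 10 and 15 and 12.78 and 12.57 in wild type embryos 11 and 13. The homozygous values lay below all others and close to each other, with a difference of -0.50 (SE 0.10, limma adjusted p = 0.111). In its list of electron carriers and inner membrane partners 16 genes were tested. An unadjusted p under 0.05 was held by 1 with a positive and 2 with a negative difference (18.75%, against 20.0% of all probes). The positive one was Higd1a, a hypoxia-induced partner of complex IV, at 0.36 (SE 0.14, adjusted p = 0.208). The acyl carrier protein gene Ndufab1, a subunit of complex I by another name pattern, had -0.28 (SE 0.14). Ndufa4l2, a relative of Ndufa4, was not analysed here.

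Of the biogenesis regulators 14 were tested, 1 with an unadjusted p under 0.05 and a positive and 2 with a negative difference. That share, 21.4%, was close to the 20.0% of all probes, and the median was near 0. Ppargc1a, the coactivator that drives mitochondrial biogenesis, had 0.15 (SE 0.20) and was above background on 7 arrays. Its relative Ppargc1b had 0.45 (SE 0.19, adjusted p = 0.232) and was highest in embryo 16, at 7.18.

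Markers of liver, skeletal muscle and nervous tissue varied between the embryos. The 8 liver markers above background on all arrays had mean log2 levels of 7.86 to 8.41 in homozygous, 8.28 to 9.13 in heterozygous and 9.08 to 9.34 in wild type embryos. The 8 skeletal muscle markers lay at 6.85 to 7.36, 7.19 to 7.91 and 7.88 to 8.16 in the same genotypes, and the 10 neuron markers at 8.72 to 9.19, 8.58 to 9.68 and 9.62 to 9.78. In each list the homozygous embryos lay below the wild type ones. None of the tested markers passed between homozygous and the other embryos. At an unadjusted p under 0.05 there were 4 of 8 liver markers (50%), 4 of 9 skeletal muscle markers (44.4%) and 1 of 10 neuron markers, all with a negative difference, against 13.4% of all probes. Their median differences were -0.62, -0.60 and -0.47. Such a p was held by 2 of 11 cardiomyocyte markers, 1 in each direction, 0 of 9 erythroid markers and 1 of 5 trophoblast and decidua markers, with medians of 0.35, -0.01 and -0.09. Of the 11 cardiomyocyte markers 10 had a positive and 1 a negative difference, where 60.2% of all probes had a negative one. The part of these tissues in the differences of Sdhb, Cox4i2 and Cycs was not tested.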

How the data were processed

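RNA of 8 whole mouse embryos was read on one-colour CodeLink arrays, 1 array per embryo, from biotin-labelled cRNA, per the labels' protocols. Per the file headers and the values, the deposited intensity of a spot is its mean minus the local background median. The deposited value table holds the same intensity divided by 1 factor per array (48.6 to 88.5). The sources used here name neither the scanner software nor a genome build.

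Spots that the scanner software had marked as contaminated, irregular or masked (206 to 1634 gene probes per array) were set missing, while saturated spots stayed in. Each array had 22526 to 26619 gene probes above background. Intensities were quantile normalized with limma 3.58.1 in R 4.3.3, floored at the 5th percentile of positive values (4.50) and taken to log2. A probe was tested, two-sided, if it was above background in every embryo of some genotype, with lmFit and eBayes. Homozygous embryos were compared with the 5 others in a model of 2 means, and the other pairs in a fit of the 3 genotype means to the 8 arrays. Benjamini-Hochberg adjustment ran across every probe tested, with a threshold of 0.05, and SEs are those of the moderated fit. The replicates are separate embryos, and 2 or 3 arrays per genotype limit the precision of every value. The test was checked on simulated, normally distributed data with the array's own means and spread. The changes were larger than those of most members and were placed only in probes with a spread below the median.

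Probes were named through their RefSeq accession, which gave 1 symbol for 14763 of 34967 gene probes. The values of 1 member are not reported here singly. Where a gene had several probes, its brightest by mean stood for it. The members, the lists of genes and markers and the naming rule were chosen with earlier results of these data known. The rule named, per complex, up to 3 genes in each direction with the largest difference between homozygous and the other embryos, all alternative isoforms and all of complex II. Of each other list it named up to 3 genes, with Cycs, Ndufab1 and Ppargc1a always. Other members were named where a count of 5 or fewer called for it or after their values were seen, as were the choices among the other lists. As alternatives, arrays were scaled by the median or by cyclic loess, or the deposited table was used; further ones were a lower floor, normexp with an offset of 50, other filters on dim probes, array weights, marked spots kept, a fit on the arrays of the compared groups alone, and each embryo left out. Leaving out embryos 16 and 10 together, the comparison with other probes between the quartiles of the subunits' levels, and complex II without Sdhb, were added after the data were seen.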

Additional observations from a re-analysis of the deposited data

Results flagged for a closer look

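In 4 of the 70 tested subunit genes, 1 of the 5 embryos that were not homozygous lay far from the other 4. An embryo was flagged past a critical value of 0.71 for 5 samples, and the share over all probes is not given here. Ndufa12 was at 13.75 in heterozygous embryo 3, against 12.76 to 12.81 in the other 4. Ndufs5 was at 4.96 in wild type embryo 11, against 9.41 to 10.67 in the other 4. Cox6a1 was at 14.1 in heterozygous embryo 10, against 14.39 to 14.47 in the other 4. Atp5k was at 13.07 in heterozygous embryo 10, against 13.20 to 13.23 in the other 4. The cause was not tested in any of them.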

How the results depend on the processing

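No subunit gene passed under any alternative run, in any of the 4 comparisons. The number of probes called changed with the processing. For homozygous against the other embryos, 25 probes became 42 under cyclic loess, 45 in the deposited value table, 85 with normexp, 50 with probes above background on all arrays, 6 without a filter on dim probes, 114 with array weights, 81 without embryos 16 and 10, and 5 to 322 when 1 embryo was left out (322 without embryo 7, 39 without 10, 14 without 3, 6 without 11, 5 without 13 or 15). For homozygous against wild type, 8 became 27 under median scaling, 20 under cyclic loess, 27 in the deposited table, 5 with the lower floor, 36 with normexp, 4 without a filter, 208 with array weights, 5 with marked spots kept, 0 with only the arrays compared, 32 without embryos 16 and 10, and 0 to 44 with 1 embryo left out (44 without embryo 7, 17 without 16, 5 without 15, 4 without 3, 2 without 13, 0 without 11). For heterozygous against wild type, 0 became 2 under median scaling, 1 under cyclic loess, 2 in the deposited table, 1 with array weights, 8 without embryos 16 and 10, and 0 to 3 with 1 embryo left out (3 without embryo 10). For homozygous against heterozygous, 5 became 10 under median scaling, 9 under cyclic loess, 12 in the deposited table, 11 with normexp, 13 with array weights, 32 without embryos 16 and 10, and 4 to 58 with 1 embryo left out (58 without embryo 7, 10 without 10, 9 without 16). The cause of these changes was not tested.

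The median difference of the members was -0.427 with median scaling and -0.460 from the deposited values for homozygous against the other embryos, -0.446 and -0.481 against wild type, -0.426 and -0.459 against heterozygous embryos, and 0.0034 and 0.00164 for heterozygous against wild type. With 1 embryo left out it was -0.115 to -0.0634 for homozygous against wild type (-0.0634 without embryo 11) and -0.053 to -0.0188 for heterozygous against wild type (-0.0188 without embryo 3), and without embryos 16 and 10 it was 0.00913 for homozygous against heterozygous embryos. By complex, in the same 2 settings, it was -0.405 and -0.439 for I, -0.486 and -0.520 for II, -0.440 and -0.473 for III, -0.401 and -0.434 for IV, and -0.468 and -0.502 for V. With 1 embryo left out it was -0.0696 to -0.0301 for complex I and -0.123 to -0.0492 for complex V (-0.0696 and -0.0492 without embryo 16), and without embryos 16 and 10 it was -0.0657 for complex I. Moving Ndufa4 to complex I gave -0.0412 for complex I and -0.0337 for complex IV, and all probes of the members gave -0.0607.

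No paired analysis was possible because the embryo numbers are not shared between genotypes. The slide or scan as a block was not run, since no such batch held over 1 array. With 1 wild type embryo left out, the remaining one is taken to have the spread of the other genotypes.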
